A study of Mus musculus with 2 samples.

Results

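The autonomic nervous system sets the rate and force of the heart through receptors that couple to G proteins, and their transcripts were examined here in the embryonic mouse heart. The 9 genes were chosen by symbol as receptors for catecholamines (Adrb1, Adrb3, Adra1a, Adra1b, Adra1d and Adra2a), acetylcholine (Chrm2 and Chrm3) and adenosine (Adora1). All 9 were found in the deposited tables, among 34236 gene symbols. The samples were 2 libraries of heart at embryonic day 12.5 from mice of a mixed C57BL/6 x 129S6 background. The mice were untreated, and no engineered allele is named. The 2 libraries form 1 group, so no condition was compared. The labels do not tell whether each library stands for its own embryo or litter, and the spread may then be technical only.

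Noradrenaline and adrenaline act on beta receptors, which raise cyclic AMP through the stimulatory G protein Gs and so increase heart rate and contractile force. They also act on alpha-1 receptors, which couple to Gq and phospholipase C, and on alpha-2 receptors, which couple to the inhibitory protein Gi and restrain transmitter release from nerve endings. Acetylcholine from the vagus slows the heart through the muscarinic M2 receptor, encoded by Chrm2, and adenosine does so through the A1 receptor, encoded by Adora1; both couple to Gi and open an inwardly rectifying potassium channel. In the embryo the heart beats before functional innervation is in place, and receptors can be present before their nerves arrive.

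Levels are given as FPKM, fragment counts divided by transcript length and by library size, a scale per length that allows levels to be compared between genes. The mean ± SD covers 2 libraries. An exact two-sided test on 2 libraries cannot give a p below 0.5, so differences are described by size and carry no p-value. Replicate 1 summed to 388230 FPKM and replicate 2 to 382561 FPKM. How many fragments were read is unknown, but a single fragment was worth 1.33 times as much in replicate 2, so replicate 1 was the deeper library. The heart label was checked against cardiomyocyte markers, and 5 of 5 were high, led by Actc1, the cardiac actin, at 4314 ± 98.4 FPKM and Tnnt2, the cardiac troponin T, at 1261 ± 46.7 FPKM, with Nkx2-5, a cardiac transcription factor, lowest at 54.1 ± 0.950 FPKM.

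Of the 9 receptor genes 5 reached 1 FPKM in both libraries (Chrm2, Adora1, Adrb1, Adra1b and Adrb3) and 4 stayed under it in both (Adra1d, Chrm3, Adra2a and Adra1a). Among 22240 protein-coding gene symbols the share that reached 1 FPKM in both libraries was 52.4%, so the receptors' count lay near the background. Their median was 1.28 FPKM, against 1.68 FPKM over all protein-coding genes. The most abundant of them, Chrm2, stood above 60.2% of protein-coding genes and the least abundant, Adra1a, above 28.8%. In RNA from whole tissue, fewer cells that carry a receptor and less receptor RNA per cell cannot be told apart.

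**Figure D1:**
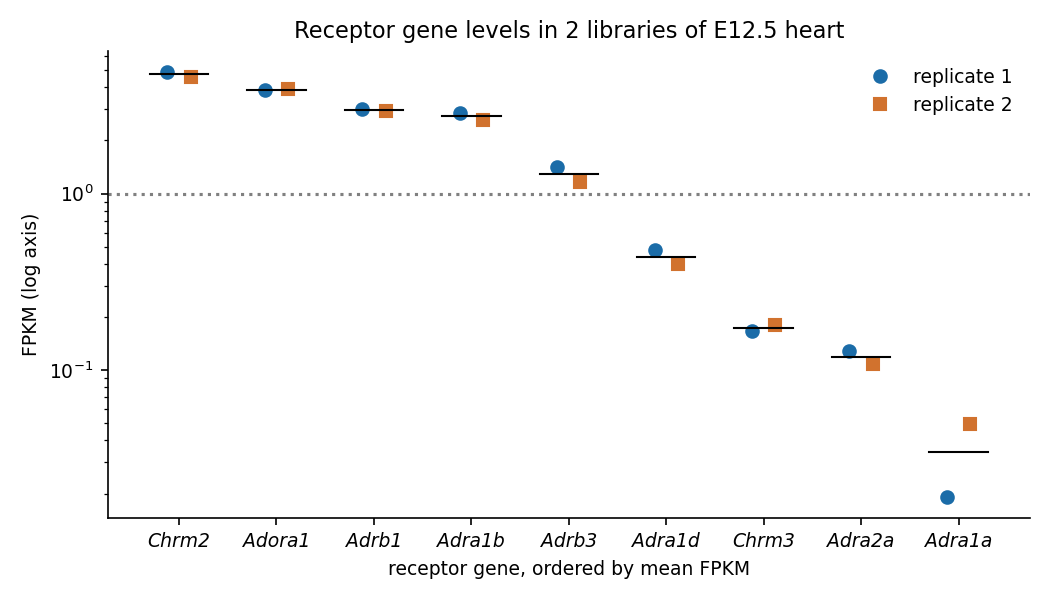
FPKM of each of the 9 receptor genes on a log axis, with circles for replicate 1, squares for replicate 2 and a bar at the mean; the dotted line marks 1 FPKM. Chrm2, Adora1, Adrb1, Adra1b and Adrb3 lie above the line in both libraries, and the points of Adra1a lie farthest apart, at 0.0192 and 0.0498 FPKM.

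Among the receptors of the vagal and adenosine routes, Chrm2 was the most abundant of all 9 genes. It was at 4.88 FPKM in replicate 1 and 4.58 FPKM in replicate 2 (4.73 ± 0.215). Chrm3, which encodes the Gq-coupled M3 receptor best known from smooth muscle and glands, was at 0.166 and 0.181 FPKM (0.173 ± 0.0103). Both libraries thus placed the M2 transcript far above the M3 transcript, by 29.4-fold in replicate 1 and 25.3-fold in replicate 2. On the scale of log2(FPKM + 0.1) the ratio of Chrm2 to Chrm3 was 4.14 ± 0.12. For scale, 95% of protein-coding genes within 2-fold of the level of Chrm3 differed by less than about 1 log2 unit between the libraries. A pair is said here to differ beyond the spread where the ratio in each library exceeds that 95th percentile, taken at the level of the lower gene, in the same direction. The percentile covers differences between the libraries only, and errors of a gene's model that both libraries share are not in it.

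One such error touches Chrm3. In the files' annotation its row spans 1949 bases of chromosome 13 (9876381 to 9878329, mm9, minus strand), whereas GENCODE M21 on GRCm38 gives the gene 485362 bases and a longest coding transcript of 4336 bases. Fragments from parts outside the short model were not counted for it. Adrb1 (2491 against 10915 bases) and Adrb3 (3813 against 24841 bases) also have shorter spans in the files, and Adra2a has 3801 against 4832 bases. Such spans include introns and do not give the share of transcript left out. In GENCODE M21 the longest coding transcript has 2952 bases for Adrb1, 2795 for Adrb3 and 4832 for Adra2a. That of Adrb3 is thus shorter than its span in the files. The spans of the other 5 genes matched within 2 bases, and exons were not compared. The part of the short models in the levels was not tested.

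Chrm2 lies on chromosome 6 (36338084 to 36478414, mm9, plus strand) and spans 140331 bases in both annotations. Its 5' end shares 2108 bases of genomic span with 9330158H04Rik, a long noncoding RNA gene on the opposite strand, which was at 3.69 FPKM in replicate 1 and 2.88 FPKM in replicate 2. No strand setting is given in the sources used here, so fragments from the shared stretch may belong to either gene. Only 1.004% of the 75-base words in Chrm2 transcripts of GENCODE M21 also occur in a transcript of that neighbour. The microRNA gene Mir490, a model of 84 bases, lies within Chrm2 on the same strand and was listed at 0 in both libraries. Whether these libraries could capture so short an RNA was not tested.

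Adora1 came second, at 3.83 FPKM in replicate 1 and 3.92 FPKM in replicate 2 (3.88 ± 0.0599). The gene lies on chromosome 1 (136095800 to 136132008, mm9, minus strand), and its 3' end overlaps Mybph, a myosin-binding protein gene on the other strand at 0.135 ± 0.0631 FPKM. Of the 75-base words in Adora1 transcripts, 16.0% occur in Mybph transcripts too, while Mybph itself was close to 0. Adrb3 shares 16.4% of such words with Gm45470, a gene of GENCODE M21, and Adra1d 4.05% with the antisense gene Gm14285. Chrm2 exceeded Adora1 in both libraries, by 1.27-fold and 1.17-fold. That gap (log2 ratio 0.28 ± 0.09) did not pass the spread of 0.32 at this level, so these 2 genes are not separated by it.

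Of the other muscarinic receptors, Chrm4, which like Chrm2 couples to Gi, was at 0.0793 ± 0.0414 FPKM, Chrm1 at 0.0152 ± 0.00242 and Chrm5 at 0.00587 ± 0.00829 FPKM, the last listed at 0 in replicate 1. Chrm2 exceeded Chrm4 by a log2 ratio of 4.77 ± 0.27, beyond a spread of 0.99. Among the adenosine receptors, Adora2a, which couples to Gs, was the next highest at 2.54 ± 0.0221 FPKM. Adora1 exceeded it by 1.52-fold in replicate 1 and 1.54-fold in replicate 2, which passed the spread (log2 ratio 0.59 ± 0.01, spread 0.41). Adora2b was at 0.356 ± 0.0342 FPKM and Adora3 at 0.0530 ± 0.00158 FPKM, the sum of 2 gene rows. The heart RNA therefore held 2 adenosine receptor transcripts above 1 FPKM, 1 for a Gi-coupled and 1 for a Gs-coupled receptor.

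The principal beta receptor of the heart, beta-1, is encoded by Adrb1, a gene on chromosome 19 (56796862 to 56799352, mm9, plus strand). It was at 3.02 FPKM in replicate 1 and 2.92 FPKM in replicate 2 (2.97 ± 0.0772). Adrb3, known for its role in fat tissue and on chromosome 8 (28336248 to 28340060, minus strand), was at 1.41 and 1.16 FPKM (1.28 ± 0.172). Adrb1 was the higher in both libraries, by 2.15-fold in replicate 1 and 2.51-fold in replicate 2. The log2 ratio of 1.16 ± 0.14 lay beyond the spread of 0.57. Adrb3 is the detected receptor nearest to the limit of 1 FPKM, and Adra1d, at 0.437 FPKM, is the highest one under it.

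The alpha-1 genes differed widely among themselves. Adra1b was at 2.85 FPKM in replicate 1 and 2.62 FPKM in replicate 2 (2.74 ± 0.163), close to the level of Adrb1. Adra1d was at 0.477 and 0.398 FPKM (0.437 ± 0.0559). Adra1a was at 0.0192 and 0.0498 FPKM (0.0345 ± 0.0216), a range in which single fragments weigh heavily. All 3 encode Gq-coupled receptors, and Adra1b exceeded Adra1d by 5.98-fold in replicate 1 and 6.58-fold in replicate 2. On the log2 scale Adra1b lay 2.40 ± 0.07 above Adra1d (spread 0.79) and Adra1a lay at -4.41 ± 0.32 relative to Adra1b (spread 0.80). Adra1a was also below Adra1d (log2 ratio -2.00 ± 0.38), beyond the spread with a pseudocount of 0.1 and within it with a pseudocount of 0.01. Adra1b lies on chromosome 11 (43588108 to 43714712, minus strand), Adra1d on chromosome 2 (131371586 to 131388021, minus strand) and Adra1a on chromosome 14 (67254088 to 67390005, plus strand).

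Adra2a, the main alpha-2 receptor of sympathetic nerve endings, was at 0.128 FPKM in replicate 1 and 0.108 FPKM in replicate 2 (0.118 ± 0.0142). The gene lies on chromosome 19 (54119672 to 54123472, plus strand). Adrb1 was 23.6-fold higher in replicate 1 and 26.9-fold higher in replicate 2. Within the alpha-2 group the highest transcript was not Adra2a but Adra2b, a receptor of vascular muscle, at 0.957 and 1.25 FPKM. Adra2a lay at a log2 ratio of -2.45 ± 0.34 to Adra2b, beyond the spread of 1.03. Adra2c, which also serves nerve endings, was at 0.108 and 0.0602 FPKM, and its ratio to Adra2a did not pass the spread (0.26 ± 0.17, spread 1.01).

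Placed in order of mean FPKM, the 9 genes fell into steps of unequal size. Only 2 of the 8 steps between neighbours passed the spread, from Adra1b down to Adrb3 (log2 ratio 1.04 ± 0.10, spread 0.57) and from Adrb3 down to Adra1d (1.36 ± 0.03, spread 0.79). Above them, Chrm2, Adora1, Adrb1 and Adra1b followed each other by gaps within the spread. The gap from Adora1 to Adrb1 (0.37 ± 0.06) came close, at a spread of 0.38, and the gap from Adrb1 to Adra1b was 0.12 ± 0.05. Below them, the order of Adra1d, Chrm3, Adra2a and Adra1a was the same in both libraries, though no step among them passed the spread. With the 8 related receptors added, 6 of 17 genes reached 1 FPKM in both libraries, beside 52.4% of protein-coding genes.

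In all, 12 of the 15 pairs compared differed beyond the spread. The pairs were chosen with earlier results of these data known. How often any pair of protein-coding genes would pass was not computed, so the count describes these pairs only. The remaining 3 were Chrm2 and Adora1, Adrb1 and Adora1, and Adra2a and Adra2c. Between the vagal and the sympathetic route, Adrb1 was lower than Chrm2 in both libraries (log2 ratio -0.65 ± 0.03, spread 0.38), at 0.620 and 0.637 times its level. This is a difference of transcript levels, and the number of receptor proteins was not measured.

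**Figure D2:**
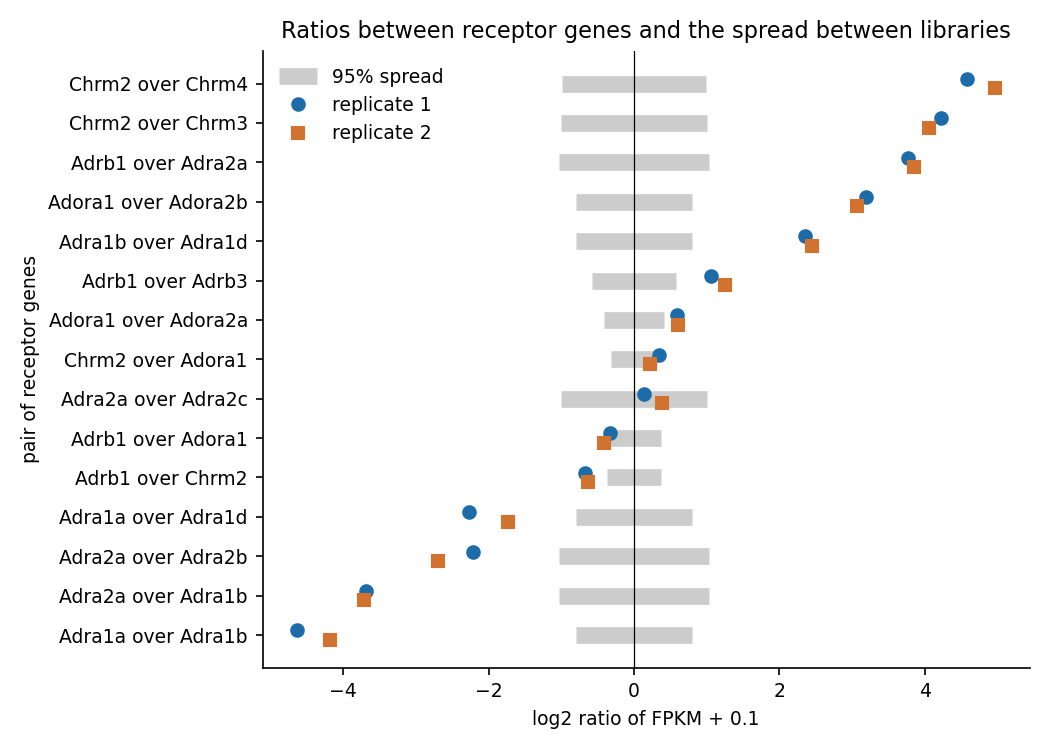
Log2 ratio of FPKM + 0.1 for 15 pairs of receptor genes, with circles for replicate 1, squares for replicate 2 and a grey band for the spread between libraries (95th percentile) at the level of the lower gene. The points of 12 pairs lie outside their band on 1 side, and those of Chrm2 over Adora1, Adrb1 over Adora1 and Adra2a over Adra2c do not both do so.

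Summed by the G protein they mainly use, the 3 Gi-coupled genes (Chrm2, Adora1 and Adra2a) together held 8.84 FPKM in replicate 1 and 8.60 FPKM in replicate 2. The 2 Gs-coupled genes (Adrb1 and Adrb3, the latter also able to use Gi) held 4.43 and 4.08 FPKM, and the 4 Gq-coupled genes (Adra1a, Adra1b, Adra1d and Chrm3) 3.51 and 3.25 FPKM. The Gi class thus made up 52.7% of the summed FPKM of these 9 genes in replicate 1 and 54.0% in replicate 2. By ligand, the 6 catecholamine receptors held 46.3 ± 1.10%, the 2 muscarinic receptors 30.0 ± 0.141% and Adora1 23.7 ± 1.24%. For acetylcholine Chrm2 carried nearly all of the sum, whereas Adrb1, Adra1b and Adrb3 shared most of the sum for catecholamines. These shares refer to the 9 chosen genes and not to all receptors of the heart.

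**Figure D3:**
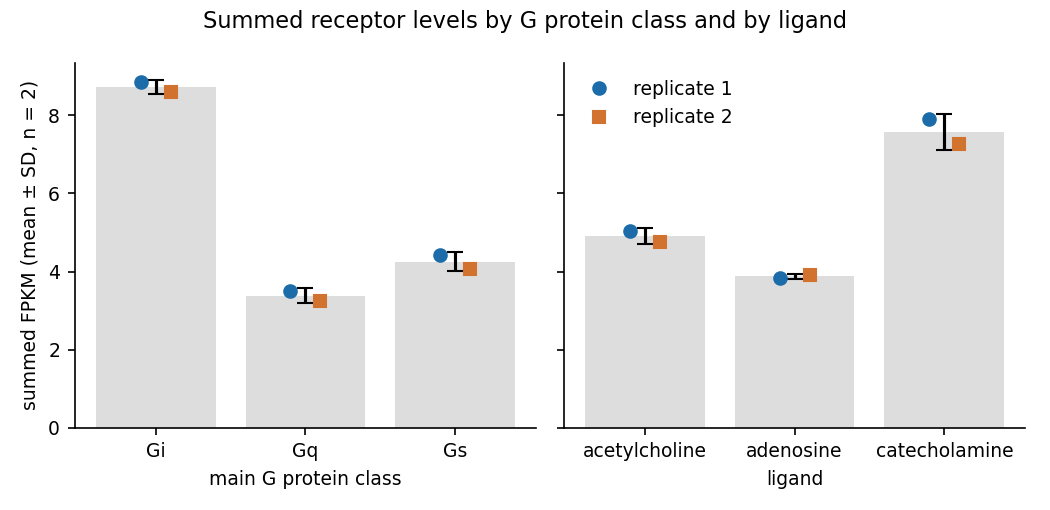
Summed FPKM of the 9 receptor genes by main G protein class (left) and by ligand (right), as grey bars for the mean with SD over 2 libraries, circles for replicate 1 and squares for replicate 2. The Gi class, at 8.84 and 8.60 FPKM, is the tallest on the left, and the catecholamine group, at 7.90 and 7.25 FPKM, on the right.

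The libraries gave like values for the detected receptors. None of the 9 differed by 1.5-fold or more on the scale of FPKM + 0.1, a difference that 3.23% of protein-coding genes showed. Over 9 genes this does not set the receptors apart from that background. Adrb3 had the largest difference among the detected receptors, at 1.21-fold higher in replicate 1. Both values of Adra1a lie under the added 0.1 FPKM, which damps its difference. Without a pseudocount Adra1a was 2.59-fold higher in replicate 2, the library in which 1 fragment was worth 1.33 times as much. In replicate 2, 6 of the 9 were lower, as were 63.6% of protein-coding genes above 0.

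The regulatory sequence before 3 of these genes is shown for comparison, the most abundant muscarinic and beta receptor genes and, as a gene with little transcript, Adra2a. Each line gives 250 bases before and 50 bases after a start site from RefSeq on GRCm38.p6, 5' to 3' on the gene's strand, and capitals mark matches on either strand to 5 short motifs. These are the CCAAT box, the GC box with the letters GGGCGG, the TATA box searched as TATAAA, the E-box searched as CACGTG, and the cyclic AMP response element, for which the search used TGACGTCA.
Chrm2, chr6:36387834-36388133, + strand: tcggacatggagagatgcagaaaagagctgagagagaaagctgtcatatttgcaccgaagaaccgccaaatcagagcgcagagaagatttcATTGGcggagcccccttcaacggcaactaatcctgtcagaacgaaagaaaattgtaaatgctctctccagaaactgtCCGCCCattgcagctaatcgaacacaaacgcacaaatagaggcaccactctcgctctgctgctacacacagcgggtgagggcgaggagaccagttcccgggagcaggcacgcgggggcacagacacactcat
Adrb1, chr19:56721867-56722166, + strand: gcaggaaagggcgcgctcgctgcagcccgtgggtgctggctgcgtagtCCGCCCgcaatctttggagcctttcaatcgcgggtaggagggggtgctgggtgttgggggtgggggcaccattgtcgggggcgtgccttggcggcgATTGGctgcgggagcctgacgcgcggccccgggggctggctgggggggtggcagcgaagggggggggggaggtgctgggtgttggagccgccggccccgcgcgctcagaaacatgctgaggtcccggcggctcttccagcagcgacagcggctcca
Adra2a, chr19:54045009-54045308, + strand: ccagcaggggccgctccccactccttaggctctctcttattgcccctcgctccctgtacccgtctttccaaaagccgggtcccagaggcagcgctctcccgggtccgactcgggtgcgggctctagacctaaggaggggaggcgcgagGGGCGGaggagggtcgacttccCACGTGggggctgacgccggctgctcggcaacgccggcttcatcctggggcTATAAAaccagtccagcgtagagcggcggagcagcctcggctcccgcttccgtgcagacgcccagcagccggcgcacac

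Chrm2 and Adrb1 each held 1 CCAAT match and 1 GGGCGG match, at -159 and -82 in Chrm2 and at -106 and -202 in Adrb1, counted from the start site to the first base of the match. Over all 32851 promoters of this length, 37.4% held CCAAT and 35.7% held GGGCGG, so both matches are common. Adra2a likewise held 1 GGGCGG match, at -102, so that motif does not set the 3 windows apart. It also held TATAAA at -29, found in 13.6% of promoters, and CACGTG at -80, found in 7.15%. None of the 8 windows available for 6 of the receptor genes held TGACGTCA, which 1.79% of promoters hold. The ratio of observed to expected CpG, a measure of CpG islands, was 0.77 in Chrm2, 0.77 in Adrb1, 0.79 in Adra2a and 0.46 in Chrm3, against a median of 0.38 over all promoters. Of the receptor genes under 1 FPKM, only Adra2a and Chrm3 have a window in the table. Adora1 and Adra1b have 2 start sites each in the table, and for Adra1b these differed, with CpG ratios of 0.74 and 0.23. A match describes letters and not a bound site.

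The lists of signalling genes downstream of the receptors had medians above that of the receptors, though some of their members lay at or below the receptors' levels. The gene lists were chosen with earlier results of these data known, and their counts are descriptions. Among all protein-coding genes 52.4% reached 1 FPKM in both libraries, the share to set beside each list's count here and below. Of 13 genes of the Gs, cyclic AMP and protein kinase A route, 12 reached 1 FPKM in both libraries. Gnas, the Gs alpha subunit, was at 636 ± 12.6 FPKM, the regulatory kinase subunit Prkar1a at 173 ± 2.06 and the catalytic subunit Prkaca at 111 ± 1.95 FPKM. Among the adenylyl cyclases, Adcy6, at 44.5 ± 0.796 FPKM, and Adcy5, at 12.5 ± 0.667 FPKM, were the highest of 6 listed; these are the Gi-inhibited forms typical of heart.

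Of 10 genes of the Gi and Go route, 9 reached 1 FPKM in both libraries. Gnai2, an inhibitory alpha subunit, was at 138 ± 0.552 FPKM, Gnai3 at 42.5 ± 1.23 and Gnao1 at 19.9 ± 0.344 FPKM. The channel that Chrm2 and Adora1 open in atrial and nodal cells is built from the products of Kcnj5 and Kcnj3, and these were at 22.2 ± 1.27 and 8.69 ± 0.360 FPKM. Rgs6, which shortens M2 receptor signals, was at 5.96 ± 0.449 FPKM. Both channel subunits and Rgs6 therefore stood above every one of the 9 receptor genes.

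The Gq route had 10 of 13 genes at 1 FPKM in both libraries. Its alpha subunits Gna11 and Gnaq were at 25.5 ± 1.15 and 13.7 ± 1.13 FPKM, whereas Gna14 and Gna15 were at 0.139 ± 0.0289 and 0.616 ± 0.0568 FPKM. The phospholipases Plcb4 and Plcb3 were at 10.5 ± 0.603 and 8.11 ± 0.121 FPKM. Of the beta and gamma subunits that all 3 classes share, 10 of 13 reached 1 FPKM in both libraries, led by Gng5 at 237 ± 16.0 and Gnb2 at 182 ± 0.567 FPKM.

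Of the kinases and arrestins that switch these receptors off, 6 of 7 reached 1 FPKM in both libraries. Adrbk1, the beta-adrenergic receptor kinase now called Grk2, was the highest at 17.8 ± 0.816 FPKM, followed by Grk6 at 15.7 ± 0.0846 FPKM. Arrb2 and Arrb1, the arrestins, were at 10.8 ± 0.470 and 9.69 ± 0.200 FPKM. Of 8 targets of the routes 7 reached the limit. Tnni3, the cardiac troponin I, was at 403 ± 16.4 FPKM. The calcium pump inhibitor Pln was at 372 ± 5.34, the calcium channel Cacna1c at 6.91 ± 0.603 and the pacemaker channel Hcn4 at 8.68 ± 0.349 FPKM.

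**Figure D4:**
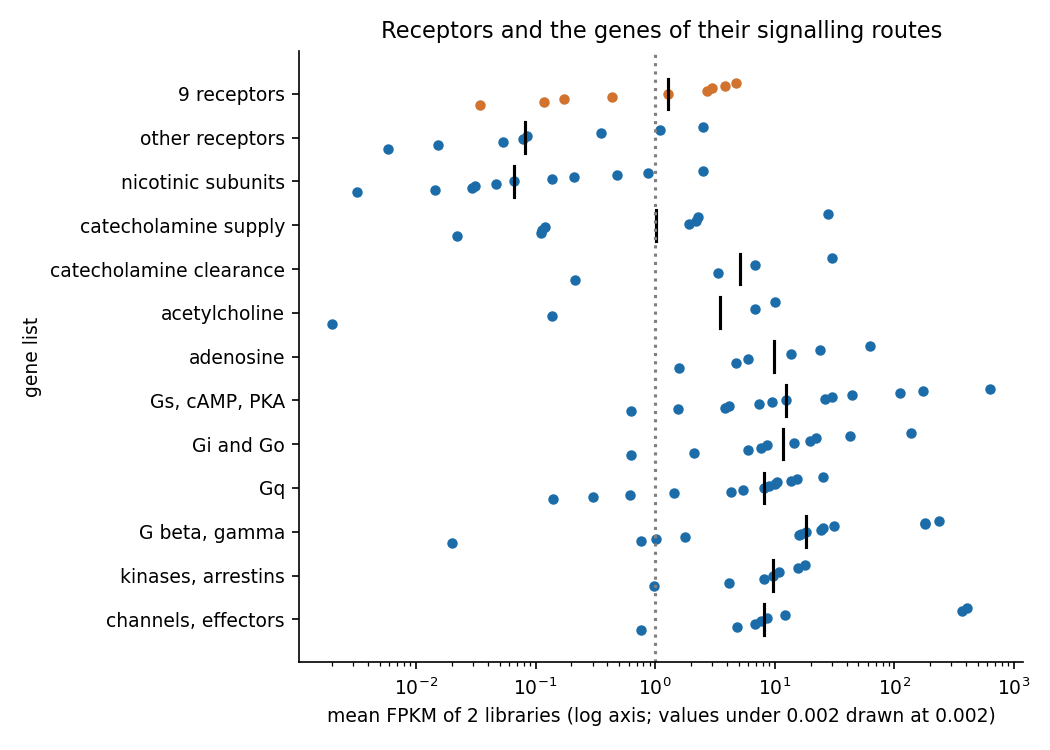
Mean FPKM over 2 libraries on a log axis, with 1 point per gene and a bar at each list's median, for the 9 receptors (orange) and 12 lists of related genes (blue); the dotted line marks 1 FPKM. The medians of the Gs, Gi and Gq lists lie at 12.5, 11.7 and 8.11 FPKM, right of the receptors' median of 1.28 FPKM.

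Genes that supply the ligands gave a mixed picture. Of 8 genes for catecholamine synthesis, storage and uptake, 4 reached 1 FPKM in both libraries. Th, the rate-limiting enzyme of catecholamine synthesis, was at 0.115 FPKM in replicate 1 and 0.107 FPKM in replicate 2. Dbh, which makes noradrenaline, was at 0.0908 and 0.135 FPKM, and the noradrenaline transporter Slc6a2 at 0.0241 and 0.0202 FPKM. Ddc, which makes dopamine from its precursor, stood apart from these at 29.9 and 25.8 FPKM. Pnmt, which converts noradrenaline to adrenaline, was at 2.43 and 1.94 FPKM, and the vesicle transporter Slc18a2 at 2.35 and 2.26 FPKM. Both libraries thus held more transcript of the last enzyme of adrenaline synthesis than of the first. Of 4 clearance genes 3 reached the limit, among them the monoamine oxidases Maoa, at 6.90 ± 0.163 FPKM, and Maob, at 3.37 ± 0.137 FPKM.

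For acetylcholine, the synthesizing enzyme Chat was listed at 0 in both libraries and the choline transporter Slc5a7 was at 0.138 ± 0.0197 FPKM. Both genes of the 4 found that reached 1 FPKM encode esterases that break acetylcholine down, with Bche at 10.1 ± 0.642 and Ache at 6.85 ± 0.134 FPKM. For adenosine, 6 of 6 genes reached 1 FPKM in both libraries. Adk, the kinase that removes adenosine, was at 62.4 ± 0.0846 FPKM, the transporter Slc29a1 at 23.7 ± 2.43 and Nt5e, the surface enzyme that makes adenosine, at 4.71 ± 0.0930 FPKM.

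Markers of the cells that form autonomic ganglia were low. Of 9 neuronal genes 3 reached 1 FPKM in both libraries (Tubb3 at 3.81 ± 0.645 FPKM, Stmn2 at 2.05 ± 0.290 and Elavl4 at 1.30 ± 0.0269), and the list's summed level was 8.37 FPKM in replicate 1 and 9.25 FPKM in replicate 2. Phox2a, a factor that marks autonomic neurons, was at 0.708 ± 0.213 FPKM, and no gene of the list was at 0. Of 6 markers of Schwann cells and crest, 2 reached the limit, among them Erbb3 at 3.26 ± 0.0719 FPKM, with a summed level for the list of 6.70 and 6.36 FPKM and Sox10 at 0.175 ± 0.00615 FPKM. Markers of other cell types of the heart were measured as well. Of 4 smooth muscle genes 3 reached the limit (summed level 568 and 589 FPKM), with Acta2 at 393 ± 10.7 and Cnn1 at 93.3 ± 2.93 FPKM. Myh11, a late marker of that lineage, was at only 0.496 ± 0.106 FPKM, so the list was not uniform. Which cells held the transcripts of the other 3 genes was not tested. All 4 endothelial genes reached it (115 and 107 FPKM), led by Cdh5 and Pecam1, as did all 4 epicardial genes (128 and 128 FPKM), led by Upk3b and Tcf21. The 4 red cell genes, led by Hbb-y and Hba-x, summed to 18915 FPKM in replicate 1 and 18108 FPKM in replicate 2. The part of each cell type in the receptor levels was not tested.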

How the data were processed

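RNA sequencing of 2 libraries of mouse heart at embryonic day 12.5 was used. The authors deposited 1 table per library with an FPKM value per gene, per the file headers. The submitters' processing notes name the tools GSNAP, Cufflinks and Cuffnorm beside the builds mm9 and hg19. The annotation, strand setting and tool versions were not given in the sources used here. Positions in the tables are on mm9.

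Rows with the same symbol were summed, and 150 of 151 listed symbols were found. Detection meant at least 1 FPKM in both libraries. Ratios were taken on log2(FPKM + 0.1), which understates differences of low genes, and set against the 95th percentile of differences between the libraries for protein-coding genes within 2-fold of the lower gene's level. Relative depth came from genes under 0.1 FPKM, where values stand for few fragments: 478 of 2637 had a ratio within 0.05 log2 units of the most frequent one. Absolute depth is unknown, so no interval for counting error is given and no count model was fitted. The 9 receptors, the gene lists and the 15 pairs were chosen with earlier results of these data known. The receptors are described in full, and genes of the lists may be named, with at least the 2 highest of each list, except that some genes of the lists are not reported here. No gene is named for a like pattern, since over 2 libraries every correlation is 1 or -1. Protein sequences were not used here. Transcript lengths and shared 75-base words came from GENCODE M21, promoters from RefSeq. Alternatives were another limit, pseudocount, spread, scaling or row rule, and each library alone. Scripts were tested on simulated data. The software was Python 3.11.15 with SciPy 1.17.1, pandas 2.3.3 and NumPy 2.4.6, and figures were drawn with Matplotlib 3.10.9.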

Additional observations from a re-analysis of the deposited data

How the results depend on the processing

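The number of receptor genes detected in both libraries was 5, also at a limit of 0.5 FPKM. It was 4 at a limit of 2 FPKM, without Adrb3, and 6 after each library was scaled to a sum of 1000000 over protein-coding genes, with Adra1d added. With 1 library left out it was 5 and 5. That scaling moved the summed level of the 9 receptors from 16.4 to 43.7, as it multiplies every gene alike. No pair changed direction under the alternatives run, and the count of pairs beyond the spread stayed between 11 and 13. The pairs that crossed the spread were Adrb1 over Adora1 (with replicate 2 alone, or against the spread of all genes at 1 FPKM or more), Chrm2 over Adora1 (with replicate 1 alone) and Adra1a over Adra1d (pseudocount 0.01). Related receptors at the limit numbered 1, and 2 with replicate 2 alone, under that scaling and at 0.5 FPKM, through Adra2b. Nicotinic subunits numbered 1, and 2 with replicate 1 alone and at 0.5 FPKM, through Chrng, and 3 under that scaling. Catecholamine supply genes went from 4 to 2 at a limit of 2 FPKM. No paired analysis was possible because the libraries form 1 group. The spread between libraries at the receptors' levels ran from 0.30 log2 units at Chrm2 to 1.03 at Adra2a.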

Other observations

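Nicotinic acetylcholine receptor subunits, which form ion channels in ganglia and at the skeletal neuromuscular junction, were mostly low. Of 11 subunit genes 1 reached 1 FPKM in both libraries, beside 52.4% of protein-coding genes. It was Chrnb1, the muscle beta subunit, at 2.53 ± 0.0175 FPKM. Chrng, the gamma subunit of fetal muscle, was at 1.10 FPKM in replicate 1 and 0.657 FPKM in replicate 2. The ganglionic subunits Chrna3 and Chrnb4 were at 0.0311 ± 0.0213 and 0.137 ± 0.0468 FPKM, and the partner subunits of muscle, Chrna1 and Chrnd, at 0.0144 ± 0.000119 and 0.00320 ± 0.00452 FPKM. Chrna7, a neuronal subunit, was at 0.479 ± 0.0561 FPKM.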
